A study of Bos taurus with 6 samples.

Results

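Cells make most of their ATP with 5 protein complexes in the inner mitochondrial membrane, and the 42 genes described here encode nuclear subunits of 4 of them, complexes II, III and IV and the ATP synthase (complex V), together with the carrier cytochrome c and the ATP synthase inhibitor ATP5IF1. They were taken by name from a fixed list, chosen with earlier results of these data known, and all 42 were found among the 17325 genes of the deposited tables. COX6C stood there under another symbol and was matched by its NCBI gene ID, 614700. By complex they are 4 genes of complex II, 9 of complex III, cytochrome c (CYCS), 12 of complex IV and 16 of the ATP synthase.

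The RNA came from cattle oocytes that had completed maturation in culture and stood at metaphase II, where an egg rests until a sperm enters. 3 libraries are labelled siMTFP1, a knockdown of MTFP1, and 3 are labelled NC, its negative control. The titles do not give the sequence of the interfering RNA, the number of oocytes in a library, the breed or the age of the donors, or whether replicates came from separate cultures, so p-values measure the spread between these samples only, which can be technical. Each value is an FPKM, a count of sequenced fragments scaled to the length of the transcript and to the mapped total of the library, and the depth behind it is unknown.

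Complex II (succinate dehydrogenase) passes electrons from the citric acid cycle to ubiquinone, complex III passes them from ubiquinol to cytochrome c, and complex IV passes them from cytochrome c to oxygen. Complexes III and IV pump protons as they work, and the ATP synthase makes ATP as protons flow back. The metaphase II oocyte relies on this oxidative route rather than on glycolysis, and it is transcriptionally silent, so its subunit messages are a store laid down during growth. All subunits of complex II come from nuclear genes, whereas complexes III, IV and V also need subunits encoded in mitochondrial DNA, which were not analysed here.

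The targeted gene was not lower in the libraries labelled siMTFP1. MTFP1 had 0.43, 0.58 and 1.15 FPKM in the libraries labelled siMTFP1 1, 2 and 3, against 0.53, 0.55 and 0.05 FPKM in those labelled NC 1, 2 and 3. The groups overlapped, and the difference of 0.32 in log2(FPKM + 1) had p = 0.400 by an exact permutation of the 6 labels (two-sided, smallest possible p 0.1). The mean of MTFP1 over the 6 libraries, 0.548 FPKM, lay below the filter of 1 FPKM used for the other tests. Values this low cannot decide whether the knockdown worked. Groups are therefore called by their labels throughout. All 15 oocyte markers had a mean of at least 1 FPKM, and the 22 cumulus and granulosa markers summed to between 220.1 and 1208 FPKM in the libraries labelled siMTFP1 and between 183 and 386 in those labelled NC, with 13 of the 22 at a mean of at least 1 FPKM and 0 at 0 in every library. HAS2 and STAR of this list were present in every library, and the granulosa receptor FSHR was at 0.02 FPKM at most. The highest of these sums belonged to siMTFP1 2, where TIMP1 alone had 955.49 FPKM. By limma, described below, 10 of 13 tested cumulus and granulosa markers averaged higher with the label siMTFP1, against 54.2% of all tested genes. The smallest p were those of SERPINE2 (log2 difference 0.85), SPARC (1.36), INHA (1.46) and TNFAIP6 (-1.36), at adjusted p of 0.720 to 0.766. Of the 15 oocyte markers 10 averaged higher, with the smallest p for ZP2 (-0.54, adjusted p = 0.447) and DAZL (0.91, adjusted p = 0.698).

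No subunit gene differed between the groups past the threshold. Each gene was compared by limma on log2(FPKM + 1) among the 9730 genes with a mean of at least 1 FPKM, which all 42 subunit genes reached. With Benjamini-Hochberg adjustment over those 9730 genes, 0 of 42 subunit genes had an adjusted p under 0.05 and the smallest was 0.750, against 0% of all tested genes past the threshold (0 of 9730). At an unadjusted p under 0.05 there were 4 of 42, with COX4I1, ATP5F1D and ATP5PB higher and ATP5ME lower in the libraries labelled siMTFP1, against 6.53% of all tested genes (3.86% higher and 2.66% lower). The groups did not overlap for 2 of the 42, ATP5PB (higher) and ATP5ME (lower), against 11.0% of all tested genes (5.97% higher and 5.05% lower). The mean was higher in the libraries labelled siMTFP1 for 24 of 42 subunit genes and lower for 18, against 54.2% higher and 45.8% lower among all tested genes. The median log2 difference was 0.06 over the subunit genes and 0.02 over all tested genes. In bulk RNA, fewer contributing cells and less RNA per cell cannot be told apart.

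**Figure D1:**
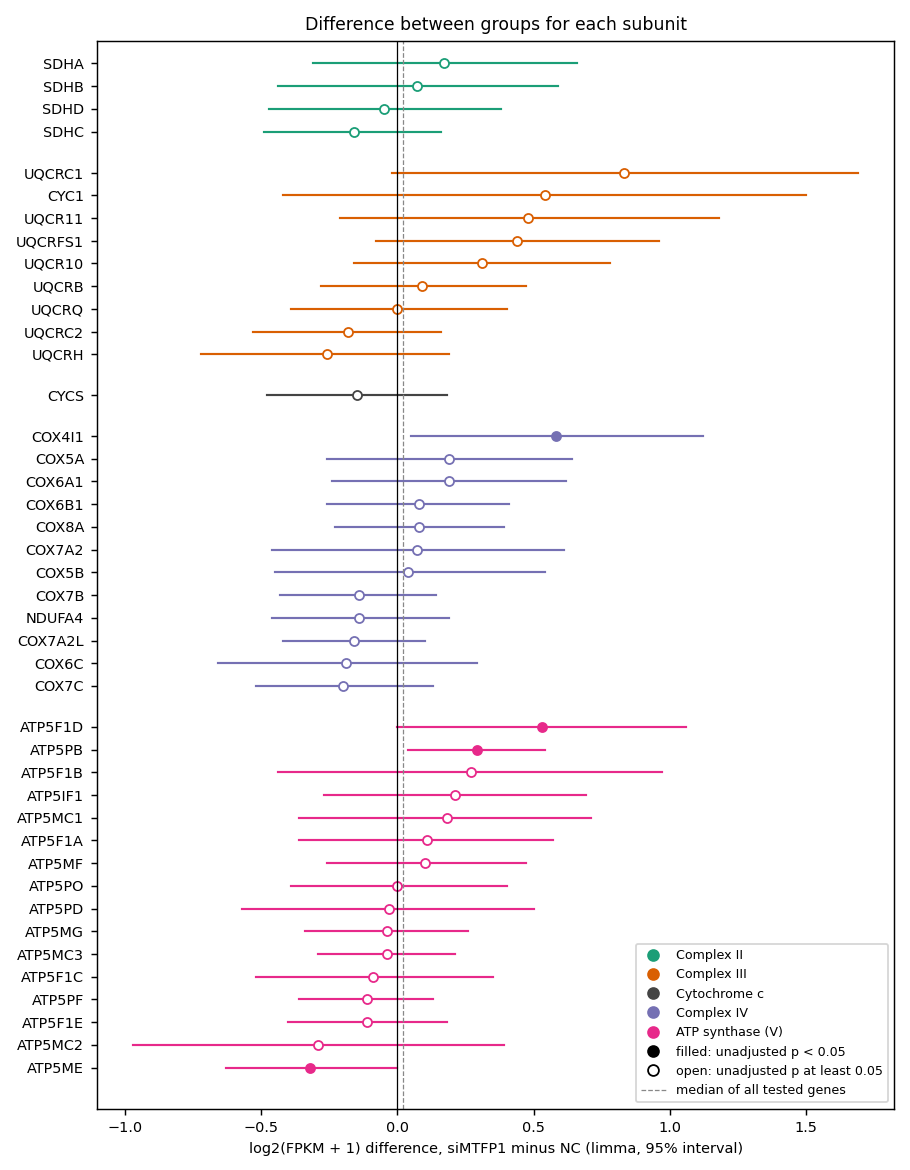
Difference between the libraries labelled siMTFP1 and those labelled NC for each of the 42 subunit genes (points, log2(FPKM + 1), siMTFP1 minus NC) with its 95% interval from limma (lines), grouped by complex. Filled points have an unadjusted p under 0.05, which holds for 4 genes, and most intervals cross 0.

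Levels differed widely between the subunit genes, also within a complex. Mean FPKM over the 6 libraries ran from 4.70 for UQCRC1 to 2720.1 for ATP5MG, a ratio of 579, with a median of 159 over the 42 genes, against 8.57 over all tested genes. Within a complex, the highest level was 9.65 times the lowest in complex II, 91.3 times in complex III, 53.4 times in complex IV and 313 times in the ATP synthase. 26 of the 42 were among the 1000 most abundant genes of the tables. The 4 genes over 1000 FPKM all encode small proteins: the ATP synthase subunits g (ATP5MG), F6 (ATP5PF) and epsilon (ATP5F1E), and COX7A2L, which links complexes III and IV. The 3 genes under 10 FPKM were UQCRC1, SDHA at 5.00 and ATP5F1D at 8.69. FPKM is per length, and the relation of level to transcript length was not tested.

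**Figure D2:**
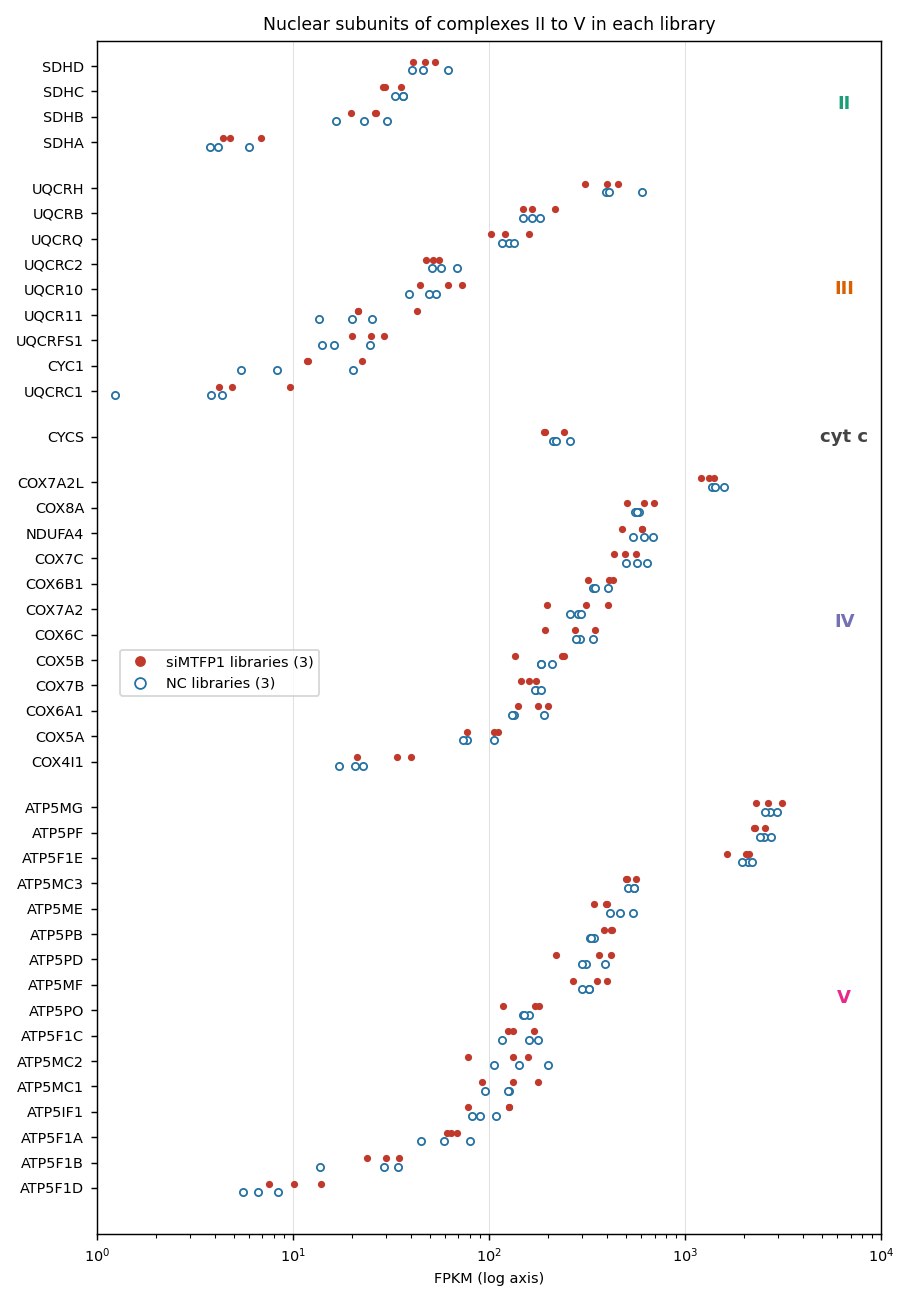
FPKM of each subunit gene in each library (log axis), by complex and from the highest to the lowest mean, with the 3 libraries labelled siMTFP1 as filled points above the 3 labelled NC as open points. Levels span from 1.24 FPKM for UQCRC1 to 3114.02 FPKM for ATP5MG, and within most genes the groups overlap.

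Summed over its subunits, no complex stood apart between the groups. The 42 genes together held 13535.5, 15729.8 and 17458.3 FPKM in the libraries labelled siMTFP1 1, 2 and 3, against 16192.9, 15812.9 and 16609.7 FPKM in those labelled NC 1, 2 and 3. The libraries labelled siMTFP1 enclosed the range of the others, with siMTFP1 1 lowest and siMTFP1 3 highest of all 6. As a share of a library's FPKM this was 1.73% to 1.96% in the libraries labelled siMTFP1 and 1.88% to 1.97% in those labelled NC. The ATP synthase genes summed to 9762 ± 1167 FPKM in the libraries labelled siMTFP1 and 10146 ± 458 in those labelled NC (SD, n = 3 each). Complex IV summed to 4615 ± 641 FPKM in the libraries labelled siMTFP1 and 4796 ± 141 in those labelled NC. Complex III summed to 881 ± 142 FPKM in the libraries labelled siMTFP1 and 920.1 ± 91.0 in those labelled NC, and complex II to 108 ± 1.24 FPKM in those labelled siMTFP1 and 113 ± 16.5 in those labelled NC. The ratio of group means, siMTFP1 over NC, was 0.96 for each of the 4 complexes. The gap was smaller than the SD between libraries of at least 1 group in each. With 1 library left out the ratio ran from 0.89 to 1.02 for complex II and 0.89 to 1.04 for complex III. For complex IV it ran from 0.90 to 1.03, and for the ATP synthase from 0.90 to 1.02. Abundant genes weigh most in these sums, with UQCRH alone making 47.7% of the complex III sum.

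Complex II holds a catalytic head of 2 proteins, the flavoprotein SDHA and the iron-sulphur protein SDHB, anchored in the membrane by SDHC and SDHD. The median log2 difference of its 4 genes was 0.01, with 2 higher and 2 lower in the libraries labelled siMTFP1. SDHA (gene ID 281480) had 4.39, 6.91 and 4.79 FPKM in the libraries labelled siMTFP1 1, 2 and 3, against 5.95, 4.16 and 3.79 FPKM in those labelled NC 1, 2 and 3. SDHB (286840) had 19.69, 26.28 and 26.41 FPKM in the libraries labelled siMTFP1, against 30.35, 23.06 and 16.68 FPKM in those labelled NC. In both genes the groups overlapped, and NC 1 lay highest and NC 3 lowest among the libraries labelled NC. The anchor SDHC (327696) had 29.64, 29.00 and 35.84 FPKM in the libraries labelled siMTFP1, against 36.32, 36.43 and 33.09 FPKM in those labelled NC. SDHD (281481), the most abundant message of the complex, had 53.27, 47.27 and 41.04 FPKM in the libraries labelled siMTFP1, against 45.94, 61.63 and 40.34 FPKM in those labelled NC. The groups overlapped for the anchors too. The log2 differences lay between -0.16 for SDHC and 0.17 for SDHA, with adjusted p of 0.892 to 0.982 by limma. For SDHC, the best measured of the 4, the 95% interval of the difference ran from -0.49 to 0.16.

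Complex III genes had the highest median log2 difference of the 4 complexes, 0.31, and 7 of 9 had a higher mean in the libraries labelled siMTFP1. None passed: 0 of 9 had an adjusted p under 0.05 by limma, and 0 of 9 an unadjusted p under 0.05. The core protein UQCRC1 (gene ID 282393) had 4.20, 9.71 and 4.88 FPKM in the libraries labelled siMTFP1 1, 2 and 3, against 4.34, 3.83 and 1.24 FPKM in those labelled NC 1, 2 and 3. The groups overlapped, since siMTFP1 1 lay under NC 1, while siMTFP1 2 stood highest and NC 3 lowest. UQCRFS1 (287020), the Rieske iron-sulphur protein that takes electrons from ubiquinol, had 25.07, 29.02 and 20.01 FPKM in the libraries labelled siMTFP1, against 24.62, 16.23 and 14.01 FPKM in those labelled NC. UQCR11 (281570), a small accessory subunit, had 21.49, 42.89 and 21.41 FPKM in the libraries labelled siMTFP1, against 25.27, 13.62 and 20.15 FPKM in those labelled NC. In all 3 genes siMTFP1 2 was the highest library. The log2 differences were 0.83 (SE 0.38, limma adjusted p = 0.766) for UQCRC1, 0.44 (SE 0.23, adjusted p = 0.811) for UQCRFS1 and 0.48 (SE 0.30, adjusted p = 0.859) for UQCR11. Single libraries moved them: UQCRC1 was at 0.52 without siMTFP1 2 and 0.44 without NC 3, UQCRFS1 at 0.28 without NC 3, and UQCR11 at 0.16 without siMTFP1 2 and 0.25 without NC 2.

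Cytochrome c1 (CYC1), which hands electrons to cytochrome c, was added after its values were seen, as its difference had the largest SE of the 42. CYC1 had 11.87, 22.56 and 11.96 FPKM in the libraries labelled siMTFP1 1, 2 and 3, against 20.33, 8.28 and 5.46 FPKM in those labelled NC 1, 2 and 3. The groups overlapped, and siMTFP1 2 and NC 1 were the highest libraries (log2 difference 0.54, SE 0.42, limma adjusted p = 0.886), and the difference was 0.17 without NC 3, 0.25 without siMTFP1 2 and 1.03 without NC 1. UQCRH, the hinge protein that helps cytochrome c dock and the most abundant message of the complex, went the other way in its mean. It had 310.53, 399.83 and 455.67 FPKM in the libraries labelled siMTFP1, against 396.96, 411.23 and 601.17 FPKM in those labelled NC. The groups overlapped (log2 difference -0.26, limma adjusted p = 0.884). The other 4 members, the core protein UQCRC2 and the accessory subunits UQCRB, UQCRQ and UQCR10, had differences between -0.18 for UQCRC2 and 0.31 for UQCR10. The complex's median was 0.15 without siMTFP1 2, 0.17 without NC 3 and 0.18 without NC 2. The library siMTFP1 2 was also highest for the mean log2 value of the cumulus and granulosa list, at 2.69. That mean was 1.97 and 2.10 in siMTFP1 1 and 3 and 1.68 to 2.32 in the libraries labelled NC. By the median deviation of the 13 tested markers from their means over the 6 libraries, NC 1 (0.24) was as high as siMTFP1 2 (0.22). The part of these markers in the result was not tested.

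Cytochrome c, the mobile protein that ferries electrons between complexes III and IV, is made from CYCS (gene ID 510767). CYCS had 190.59, 192.75 and 241.70 FPKM in the libraries labelled siMTFP1 1, 2 and 3, against 211.64, 220.21 and 258.20 FPKM in those labelled NC 1, 2 and 3. The groups overlapped through siMTFP1 3. The log2 difference was -0.15, with a 95% interval from -0.48 to 0.18 (limma adjusted p = 0.909). Its level was 8.54 to 20.2 times that of its electron donor CYC1 in the libraries labelled siMTFP1 and 10.4 to 47.3 times in those labelled NC.

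Complex IV (cytochrome c oxidase) carries its copper and haem in subunits encoded by mitochondrial DNA, and the nuclear subunits described here surround that core. Their median log2 difference was 0.06, with 7 of 12 higher and 5 lower in the libraries labelled siMTFP1. COX4I1 (gene ID 281090), an early partner of the core and the least abundant nuclear message of the complex, had the smallest p of the 12. COX4I1 had 21.31, 40.07 and 33.87 FPKM in the libraries labelled siMTFP1 1, 2 and 3, against 22.90, 20.80 and 17.21 FPKM in those labelled NC 1, 2 and 3. The libraries siMTFP1 2 and 3 lay above all those labelled NC, while siMTFP1 1 lay among them. The log2 difference was 0.58 (SE 0.23, unadjusted p = 0.0348, limma adjusted p = 0.750). COX5A, which sits next to COX4I1 in the first assembly steps, had a log2 difference of 0.19 (SE 0.20), and COX5B, which binds zinc, one of 0.04 (SE 0.22).

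COX7C (gene ID 327718) encodes a small membrane-spanning subunit and had 493.74, 437.28 and 562.90 FPKM in the libraries labelled siMTFP1 1, 2 and 3, against 637.85, 502.73 and 570.85 FPKM in those labelled NC 1, 2 and 3. The groups overlapped (log2 difference -0.20, SE 0.14, limma adjusted p = 0.883). COX7A2 (327688) and COX7A2L (540225) are related proteins that take up the same position in different forms of the enzyme, COX7A2 in the free or dimeric enzyme and COX7A2L, also called SCAF1, where complex IV is joined to complex III. COX7A2L had 1205.13, 1329.49 and 1407.08 FPKM in the libraries labelled siMTFP1, against 1377.50, 1592.04 and 1422.55 FPKM in those labelled NC. COX7A2 had 198.62, 311.41 and 407.69 FPKM in the libraries labelled siMTFP1, against 284.60, 295.74 and 258.91 FPKM in those labelled NC. For COX7A2 the libraries labelled siMTFP1 included both the lowest and the highest of all 6. The ratio of COX7A2L to COX7A2 was 6.07, 4.27 and 3.45 in the libraries labelled siMTFP1, against 4.84, 5.38 and 5.49 in those labelled NC, so the linker message was the more abundant in every library and the groups overlapped. COX6A1, COX6B1, COX6C, COX7B, COX8A and NDUFA4, a subunit first assigned to complex I, had log2 differences between -0.19 for COX6C and 0.19 for COX6A1.

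The ATP synthase has a catalytic head (ATP5F1A, ATP5F1B), a central stalk (ATP5F1C, ATP5F1D, ATP5F1E), a peripheral stalk (ATP5PB, ATP5PD, ATP5PF, ATP5PO), a rotor ring of subunit c (ATP5MC1, ATP5MC2, ATP5MC3) and small membrane subunits (ATP5ME, ATP5MF, ATP5MG). Of its 16 genes 8 were higher and 8 lower in the libraries labelled siMTFP1, with a median log2 difference of -0.01. The catalytic beta subunit ATP5F1B (gene ID 327675), named after its values were seen, had 30.03, 34.69 and 23.90 FPKM in the libraries labelled siMTFP1 1, 2 and 3, against 34.38, 29.22 and 13.83 FPKM in those labelled NC 1, 2 and 3. The groups overlapped, with NC 3 lowest (log2 difference 0.27, SE 0.31, limma adjusted p = 0.923). Its partner ATP5F1A had 2.13, 1.98 and 2.55 times the level of ATP5F1B in the libraries labelled siMTFP1, against 2.33, 2.03 and 3.25 times in those labelled NC.

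In the central stalk, ATP5F1D (gene ID 338081) was the least abundant and ATP5F1E (617230) among the most abundant messages of the complex. ATP5F1D had 10.08, 13.86 and 7.60 FPKM in the libraries labelled siMTFP1 1, 2 and 3, against 8.41, 5.55 and 6.66 FPKM in those labelled NC 1, 2 and 3. The groups overlapped through siMTFP1 3 and NC 1 (log2 difference 0.53, SE 0.23, unadjusted p = 0.0499, limma adjusted p = 0.764), and the difference was 0.33 without siMTFP1 2. Although their proteins bind each other in the stalk, the level of ATP5F1E was 147 to 280.5 times that of ATP5F1D in the libraries labelled siMTFP1 and 249.9 to 353 times in those labelled NC. ATP5F1E itself had a log2 difference of -0.11 (SE 0.13), and ATP5F1C, the rotating gamma subunit, one of -0.09 (SE 0.19).

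The peripheral stalk held the smallest p of the ATP synthase genes. ATP5PB (gene ID 282701), the b subunit that keeps the head from turning, had 426.23, 385.58 and 421.61 FPKM in the libraries labelled siMTFP1 1, 2 and 3, against 329.68, 344.74 and 330.70 FPKM in those labelled NC 1, 2 and 3. All 3 libraries labelled siMTFP1 lay above all 3 labelled NC. The means were 411 ± 22.3 FPKM in the libraries labelled siMTFP1 and 335 ± 8.42 in those labelled NC (SD, n = 3 each), a log2 difference of 0.29 (SE 0.11, 95% interval 0.04 to 0.54, unadjusted p = 0.0265, limma adjusted p = 0.750). With 1 library left out at a time it lay between 0.27 and 0.34. Of the other members of the stalk, ATP5PD had a log2 difference of -0.03, ATP5PF (coupling factor F6) one of -0.11 and ATP5PO, which clamps the stalk to the head, one of 0.00.

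Among the small membrane subunits, which help ATP synthase dimers bend the cristae, ATP5ME was the other gene of the 42 without overlap, and ATP5MG the most abundant of them. ATP5ME (gene ID 338040), subunit e, had 345.24, 398.48 and 396.05 FPKM in the libraries labelled siMTFP1 1, 2 and 3, against 546.93, 413.49 and 465.85 FPKM in those labelled NC 1, 2 and 3. All 3 libraries labelled siMTFP1 lay below all 3 labelled NC, by a narrow gap between siMTFP1 2 and NC 2 (log2 difference -0.32, SE 0.14, unadjusted p = 0.0494, limma adjusted p = 0.764), and the difference was -0.21 without NC 1. Its binding partner subunit g, ATP5MG (515696), had 2309.45, 2654.89 and 3114.02 FPKM in the libraries labelled siMTFP1, against 2703.39, 2574.40 and 2964.72 FPKM in those labelled NC. For ATP5MG the libraries labelled siMTFP1 enclosed those labelled NC (log2 difference -0.04, SE 0.13). Subunit f, ATP5MF, had a log2 difference of 0.10 (SE 0.16). ATP5MJ and ATP5MK, 2 ATP synthase subunits outside the 42, had log2 differences of -0.26 and -0.08 (limma adjusted p = 0.884 and 0.963).

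The rotor ring is made of 1 protein encoded by 3 genes, ATP5MC1, ATP5MC2 and ATP5MC3, which in mammals differ in the targeting peptide and give the same mature subunit c. Their transcript sequences were not compared here, and how reads were divided among them is uncertain. ATP5MC3 (gene ID 540176) had 502.90, 504.19 and 564.19 FPKM in the libraries labelled siMTFP1 1, 2 and 3, against 552.34, 510.45 and 551.42 FPKM in those labelled NC 1, 2 and 3. ATP5MC1 (338053) had 92.76, 132.84 and 177.86 FPKM in the libraries labelled siMTFP1, against 126.84, 124.97 and 95.57 FPKM in those labelled NC. ATP5MC2 (337887) had 77.98, 133.21 and 158.99 FPKM in the libraries labelled siMTFP1, against 141.76, 201.41 and 106.03 FPKM in those labelled NC. ATP5MC3 was the main source in every library, with 62.6% to 74.7% of the 3-gene sum in the libraries labelled siMTFP1 and 61.0% to 73.2% in those labelled NC. The sum was 782 ± 114 FPKM in the libraries labelled siMTFP1 and 804 ± 44.5 in those labelled NC (SD, n = 3 each), and the log2 differences of the single genes, -0.29 for ATP5MC2 to 0.18 for ATP5MC1, had limma adjusted p of 0.912 to 0.974.

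ATP5IF1 (gene ID 327699) encodes the inhibitor that stops the enzyme from burning ATP when the proton gradient fails. It had 77.89, 126.89 and 125.99 FPKM in the libraries labelled siMTFP1 1, 2 and 3, against 108.79, 81.96 and 90.33 FPKM in those labelled NC 1, 2 and 3. The groups overlapped, because siMTFP1 1 was the lowest of all 6 (log2 difference 0.21, SE 0.21, limma adjusted p = 0.909). Set against the beta subunit that it binds, the ratio of ATP5IF1 to ATP5F1B was 2.59, 3.66 and 5.27 in the libraries labelled siMTFP1, against 3.16, 2.80 and 6.53 in those labelled NC.

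Most of the subunit genes lay low together in siMTFP1 1 and high together in siMTFP1 3. Taking each gene's log2 level minus its mean over the 6 libraries, the median over the 42 genes was -0.21, 0.10 and 0.15 in the libraries labelled siMTFP1 1, 2 and 3, against 0.05, -0.03 and -0.10 in those labelled NC 1, 2 and 3. Over all tested genes the same medians lay between -0.02 and 0.04 in the libraries labelled siMTFP1 and between -0.08 and 0.05 in those labelled NC. Over the 15 oocyte markers they were 0.04, 0.02 and 0.19 in siMTFP1 1, 2 and 3. In NC 1, 2 and 3 they were 0.00, 0.02 and -0.15. The FPKM of all genes summed to 784365.7 in siMTFP1 1, the lowest of the 6 libraries, and to 892790.4 in siMTFP1 3, the highest. The part of these totals in the pattern was not tested. By sign alone, complex IV showed the low and the high library most evenly. 12 of its 12 genes lay below their mean in siMTFP1 1, and 12 of 12 above it in siMTFP1 3. Some lay above it by little: COX7A2L had 1407.08 FPKM in siMTFP1 3 against a mean of 1389, and NDUFA4 601.04 against 587. The ATP synthase followed with 12 of 16 genes below in siMTFP1 1 and 12 of 16 above in siMTFP1 3, whereas complex II, at 3 of 4 below and 2 of 4 above, and complex III, at 6 of 9 below and 5 of 9 above, did so less fully. Of all 9730 tested genes, 4117 lay below their mean in siMTFP1 1 and 4508 above it in siMTFP1 3. Without siMTFP1 1 the subunit genes were higher in 30 of 42 cases, against 51.1% of all tested genes, with a median log2 difference of 0.20. Without siMTFP1 3 the subunit genes were higher in 17 of 42, against 56.3% of all tested genes, with a median of -0.08. In neither case did a subunit gene pass the threshold by limma.

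**Figure D3:**
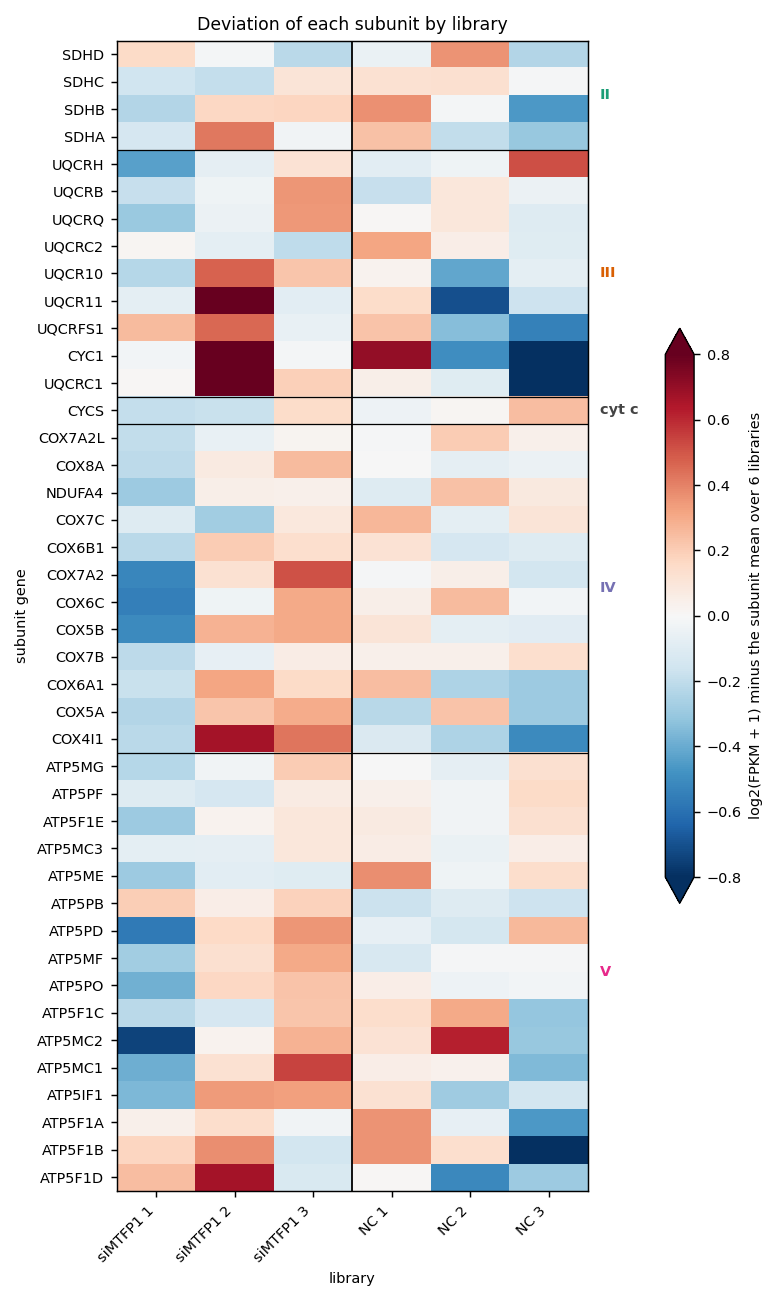
Each subunit gene's log2(FPKM + 1) minus its mean over the 6 libraries (colour, red higher and blue lower, values beyond 0.8 in the end colours), with the libraries labelled siMTFP1 left of the line and those labelled NC right of it. Every complex IV gene lies below its mean in siMTFP1 1 and above it in siMTFP1 3, some by little, and UQCRC1, CYC1 and ATP5F1B are bluest in NC 3.

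The low library was not the same for abundant and for scarce messages, a split at a mean of 100 FPKM that was chosen after the values were seen. Of the 27 subunit genes at or over 100 FPKM, 22 (81.5%) had their lowest value in siMTFP1 1, against 28.7% of the 1148 tested genes in that range. Of the 15 under 100 FPKM, 0 were lowest in siMTFP1 1 and 10 (66.7%) were lowest in NC 3, against 12.5% and 30.1% of the 8582 tested genes in that range. The direction of the difference rests on the same values as the lowest library, so it is not a separate observation. Of the 15 scarce genes 12 had a higher mean in the libraries labelled siMTFP1, against 54.8% of all tested genes under 100 FPKM. Their median log2 difference was 0.27. Of the 27 abundant genes 12 had a higher mean there, against 49.5% of all tested genes at or over 100 FPKM. Their median was -0.04. Single libraries moved both counts. The abundant genes were higher in 18 of 27 cases without siMTFP1 1, against 54.9% of all tested genes in that range, with a median of 0.07. They were higher in 4 of 27 without siMTFP1 3, against 43.7%, with a median of -0.17. Without NC 3 the scarce genes were higher in 9 of 15 cases, against 47.9% of all tested genes in that range, with a median of 0.09. NC 3 was also the library with the fewest genes above 0 (15120, against 15307 to 15533 in the libraries labelled siMTFP1 and 15359 and 15411 in the other two labelled NC), and its part in the result was not tested.

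**Figure D4:**
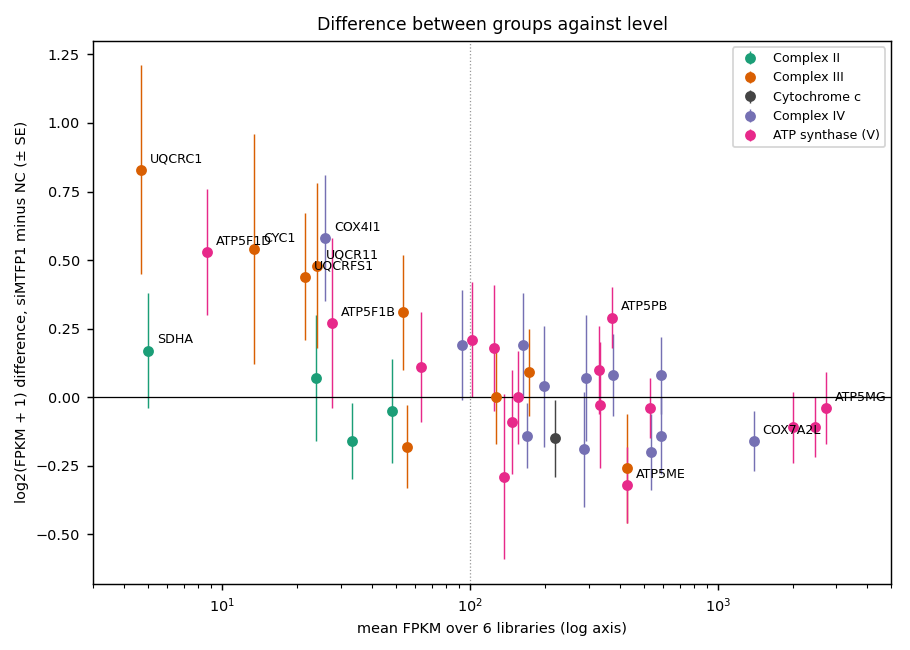
Log2 difference of each subunit gene, siMTFP1 minus NC, with its SE from limma (vertical axis) against its mean FPKM over the 6 libraries (log axis), coloured by complex, with a dotted line at 100 FPKM. Of the 15 genes left of the line 12 lie above 0, and of the 27 to its right 12 do.

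Factors that build these complexes were read from lists of assembly genes beside the subunits. Of 49 assembly factors matched, 43 were tested, of which 27 averaged higher and 16 lower with the label siMTFP1, with a median log2 difference of 0.06. By limma 0 of 43 passed with adjustment over all tested genes, and 7 had an unadjusted p under 0.05, 5 higher and 2 lower, against 3.86% of all tested genes higher and 2.66% lower. The groups did not overlap for 1 higher (CMC1) and 3 lower (UQCC6, TMEM70 and, named after its values were seen, COX10) of the 43, against 5.97% and 5.05% of all tested genes. CMC1, which binds newly made COX1 in the first steps of complex IV assembly, had 730.45, 758.31 and 799.88 FPKM in the libraries labelled siMTFP1 1, 2 and 3, against 582.50, 604.70 and 633.18 FPKM in those labelled NC 1, 2 and 3. The groups did not overlap (log2 difference 0.33, SE 0.11, unadjusted p = 0.0135, limma adjusted p = 0.698). The other complex IV factors with the smallest p were also higher in their means. COX20, a chaperone of COX2, had a log2 difference of 0.69 (SE 0.26), SMIM20, which stabilises new COX1, one of 0.67 (SE 0.25), and COA1, which also acts on new COX1, one of 0.69 (SE 0.28), each at a limma adjusted p of 0.750 and with overlapping groups.

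For complex III, UQCC2, which binds new cytochrome b, averaged 59.0 ± 7.75 FPKM in the libraries labelled siMTFP1 and 39.2 ± 13.4 in those labelled NC (SD, n = 3 each). UQCC6 averaged 135 ± 18.3 FPKM in the libraries labelled siMTFP1 and 167 ± 6.05 in those labelled NC, without overlap. Their log2 differences were 0.63 and -0.32, and neither passed (limma adjusted p = 0.750 and 0.764). UQCC3 (0.49) and LYRM7, which guides the Rieske protein (0.25), did not pass either. For the ATP synthase, TMEM70, which helps form the c ring, averaged 9.92 ± 1.85 FPKM in the libraries labelled siMTFP1 and 13.8 ± 0.856 in those labelled NC, again without overlap (log2 difference -0.45, SE 0.17, limma adjusted p = 0.750). ATPAF1, the chaperone of the beta subunit, had a log2 difference of -0.41, DMAC2L one of 0.37 and TMEM242 one of 0.15. The 3 tested factors of complex II, SDHAF2, SDHAF3 and SDHAF4, had log2 differences of -0.10, -0.33 and -0.32, and SDHAF1 lay below the expression filter.

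Of 11 regulators of nuclear respiratory genes matched, 9 were tested, with 2 higher and 7 lower in their means and 0 past the threshold by limma, 1 of them at an unadjusted p under 0.05, against 6.53% of all tested genes. The groups did not overlap for 2 of the 9, GABPA and GABPB1, against 11.0% of all tested genes. GABPA, the DNA-binding subunit of nuclear respiratory factor NRF-2, had 1.35, 3.01 and 2.39 FPKM in the libraries labelled siMTFP1 1, 2 and 3, against 3.50, 3.92 and 3.18 FPKM in those labelled NC 1, 2 and 3. The groups did not overlap (log2 difference -0.51, SE 0.22, unadjusted p = 0.0443, limma adjusted p = 0.763). Its partner GABPB1 had 70.53, 68.70 and 69.72 FPKM in the libraries labelled siMTFP1, against 72.99, 73.00 and 82.31 FPKM in those labelled NC, also without overlap (log2 difference -0.12, limma adjusted p = 0.909). CREB1 had a log2 difference of 0.43 and YY1 one of -0.12, and the coactivator gene PPARGC1B and the receptor gene ESRRA lay below the expression filter.

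The oocytes also carried messages of isoforms that other tissues use in place of the common complex IV subunits. COX8C, listed in the tables under a locus name and named here from its gene ID (100300759), is known in humans as a testis form of subunit 8. It had 146.00, 209.24 and 271.93 FPKM in the libraries labelled siMTFP1 1, 2 and 3, against 196.92, 188.97 and 159.31 FPKM in those labelled NC 1, 2 and 3. That was 0.288, 0.339 and 0.389 times the level of COX8A in the libraries labelled siMTFP1, against 0.336, 0.338 and 0.281 times in those labelled NC, and the groups overlapped. COX7A1, the heart and muscle form of subunit 7A, averaged 61.2 ± 15.5 FPKM in the libraries labelled siMTFP1 and 62.1 ± 3.39 in those labelled NC, and COX6B2, known in humans from testis, averaged 40.3 ± 9.72 FPKM in the libraries labelled siMTFP1 and 35.7 ± 2.64 in those labelled NC (SD, n = 3 each). COX7A1 was named after its values were seen.

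COX7B2 and NDUFA4L2 had the largest log2 differences of the subunit, assembly, regulator and isoform genes named here, carried by the same pair of libraries. COX7B2, known in humans from testis, had 1.03, 18.06 and 16.34 FPKM in the libraries labelled siMTFP1 1, 2 and 3, against 2.87, 0.38 and 1.09 FPKM in those labelled NC 1, 2 and 3. NDUFA4L2, which takes the place of NDUFA4 under hypoxia in human cells, had 0.18, 3.92 and 6.66 FPKM in the libraries labelled siMTFP1, against 0.83, 0.76 and 0.31 FPKM in those labelled NC. In both genes siMTFP1 2 and 3 lay above every library labelled NC while siMTFP1 1 did not, and the common genes COX7B and NDUFA4 showed no such gap. The log2 differences were 1.97 (SE 0.79) for COX7B2 and 1.13 (SE 0.58) for NDUFA4L2, and neither passed (limma adjusted p = 0.750 and 0.806). NDUFA4L2 reached the expression filter through these 2 libraries.

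**Figure D5:**
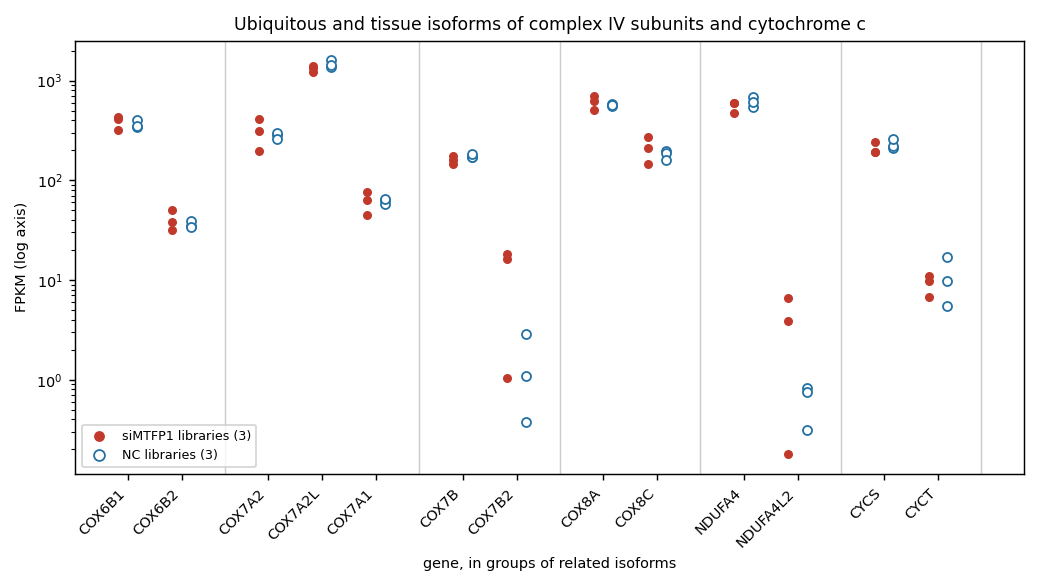
FPKM of complex IV subunits and cytochrome c beside their related isoforms in each library (log axis), with the 3 libraries labelled siMTFP1 as filled points left of the 3 labelled NC as open points. COX7B2 and NDUFA4L2 show 2 libraries labelled siMTFP1 above the rest, between 3.92 and 18.06 FPKM, and the third among the libraries labelled NC or below them.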

How the data were processed

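The authors deposited 1 table per library with an FPKM value (2 decimals) for the same 17325 genes, per the file headers. RNA was extracted with TRIzol and libraries were made with a BGI mRNA kit, per the labels' protocols. HISAT2 2.2.1, Bowtie2 2.3.4.3, RSEM 1.3.1, DESeq2 1.4.5 and the build ARS-UCD1.2 are named, without role or order, per the submitters' processing notes. The use of strand and the treatment of reads shared by near-identical genes or processed pseudogenes are not stated, so such genes are uncertain.

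The 6 libraries were grouped by title. Gene IDs were matched to a RefSeq table of another assembly for names only (17087 of 17325), so no coordinates are printed, and promoter and protein sequences, planned as descriptions, were not analysed here. Values were compared as log2(FPKM + 1) for genes with a mean of at least 1 FPKM with limma 3.58.1 in R 4.3.3 (trend, two-sided, group as the only term), adjusted by Benjamini-Hochberg over all 9730 tested genes at 0.05. These log2 differences understate changes of scarce genes. A count model was not used because FPKM are not counts. Depth is unknown. Between libraries, 15 of 15 pairs had their commonest log2 ratio of low values at 0, to a tolerance of 0.1. Low values given to 2 decimals often tie, so this cannot show whether depth was alike. The fit was first tested on simulated data. Python 3.11.15 with pandas 2.3.3, scipy 1.17.1 and matplotlib 3.10.9 served for tables, the permutation test and figures.

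The subunit genes and the other lists were chosen with earlier results of these data known. By rule, values per library were given for the 3 smallest p and the highest and the lowest level of each complex. They were also given for every subunit gene with an unadjusted p under 0.05, and for CYCS, ATP5IF1, COX7A2, COX7A2L and the ATP5MC genes. Up to 4 genes per other list were named by p. HAS2, STAR, FSHR and TIMP1 were named outside this rule, and markers of blood cells were not named. Alternatives were pseudocounts 0.1 and 5, no filter and a filter of 5, 3 scalings, robust eBayes, array weights, a replicate block and each library left out.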

Additional observations from a re-analysis of the deposited data

How the results depend on the processing

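No subunit gene passed the threshold by limma under any alternative, the smallest adjusted p being 0.290 (COX4I1, array weights). Of the 42, 23 kept the sign of their log2 difference in every one of the 16 alternatives in which they were tested. SDHA and UQCRC1 were not tested with the filter of 5 FPKM. The count of subunit genes at an unadjusted p under 0.05, 4 as reported, was 2 with pseudocount 5, 2 with no filter, 2 with median-ratio scaling, 2 with the replicate block, 7 with array weights and 0 to 5 with 1 library left out, 0 of them without NC 3. Set against all tested genes, the subunit genes' share at that p was 9.52% against 6.53% as reported. It was 4.76% and below theirs with pseudocount 5 (6.40%), no filter (6.01%), median-ratio scaling (6.69%) and the replicate block (6.47%). It was above theirs with array weights (16.7% against 11.1%), equal sums (7.14% against 5.85%) and quantile normalization (7.14% against 6.78%). The same held with pseudocount 0.1, the filter of 5 FPKM and robust eBayes. With 1 library left out it was above theirs without siMTFP1 1 (11.9% against 7.83%) and without NC 1 (11.9% against 6.86%). Without each of the other libraries it was below theirs. The count without overlap was 2 as reported (4.76% against 11.0% of all tested genes). It was 5 with equal sums (11.9% against 9.55%) and 6 with quantile normalization (14.3% against 11.7%). With 1 library left out, where smaller groups separate more often, it was 2 to 13. It was 13 without siMTFP1 1 (12 higher and 1 lower, 31.0% against 24.7% of all tested genes). It was also 13 without NC 1 (10 higher and 3 lower, 31.0% against 22.6%). Without siMTFP1 3 it was 12 (3 higher and 9 lower, 28.6% against 22.6%). Without each of the other libraries the share was below that of all tested genes. Among all genes, 635 at an unadjusted p under 0.05 became 1041 with no filter, 358 with a mean of at least 5 FPKM, 1080 with array weights and 335 to 763 with 1 library left out. The count past the threshold, 0 as reported, was 2 with a mean of at least 5 FPKM, 2 with equal sums and 0 to 2 with 1 library left out. The complex IV median lay between -0.13 without siMTFP1 3 and 0.21 without siMTFP1 1. The count of subunit genes with a higher mean, an alternative chosen after seeing the data, ran from 17 without siMTFP1 3 to 30 without siMTFP1 1. The shares of all tested genes in these 2 settings were 56.3% and 51.1%.

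The sign turned for UQCRQ with median-ratio scaling (-0.03) and array weights (-0.02), for ATP5PO with median-ratio scaling (-0.03) and quantile normalization (-0.00), and for ATP5PD with array weights (0.09). With 1 library left out it turned for 19 genes, whose log2 differences ranged as follows: SDHB -0.14 to 0.27, SDHD -0.18 to 0.12, UQCRB -0.06 to 0.21, UQCRQ -0.17 to 0.15, COX5B -0.09 to 0.31, COX6B1 -0.00 to 0.21, COX6C -0.38 to 0.04, COX7A2 -0.17 to 0.35, COX8A -0.03 to 0.20, ATP5F1A -0.10 to 0.31, ATP5F1B -0.11 to 0.51, ATP5F1C -0.26 to 0.04, ATP5F1E -0.19 to 0.00, ATP5PD -0.22 to 0.24, ATP5PO -0.11 to 0.20, ATP5MC1 -0.05 to 0.42, ATP5MC2 -0.51 to 0.01, ATP5MF -0.03 to 0.26, ATP5MG -0.15 to 0.07. The cause was not tested. Same-numbered libraries did not deviate together (correlations of 0.0342, -0.163 and 0.0667 across genes), so the replicate block was not taken as a pairing. Depth is unknown, so counting error could not be set beside the spread between libraries.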
